A study of Homo sapiens with 15 samples.

Results

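The BCL2 family genes of the apoptosis machinery were followed across the conditions of an RNA-seq experiment in HGrC1 cells, an immortalized human granulosa cell line that carries normal FOXL2 alleles. The members are a list of gene symbols, and no expression value enters the rule: BCL2, BCL2L1, BCL2L2, MCL1, BAX, BAK1, BCL2L11, BID, BIK and PMAIP1, which makes 10 of the 37787 genes in the count table. Cells at passage 14 were transfected by lipofection for 4 h and cultured without serum for 24 h, in 5 conditions of 3 libraries each, lettered A, B and C. Vectors cells received empty plasmids, FOXL2WT cells received SMAD3 with wild-type FOXL2, and FOXL2C134W cells received SMAD3 with the C134W mutant that marks adult granulosa cell tumors. FOXL2WT + FOXO1 and FOXL2C134W + FOXO1 cells received in addition FOXO1-3A, a nuclear, constitutively active FOXO1 with alanine substitutions. All plasmids were introduced transiently into 1 cell line, SMAD3 was present in every condition but Vectors, and no condition received FOXO1 or SMAD3 alone, so that the effect of FOXL2 could not be told apart from that of SMAD3 in comparisons with Vectors. Nothing in the labels says that the libraries of a condition came from separate cultures, and p-values then measure the spread between these libraries.

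BCL2 family proteins decide whether the outer mitochondrial membrane is opened, the step that releases cytochrome c and starts the caspase cascade. The guardians BCL2, BCL2L1 (BCL-XL), BCL2L2 (BCL-W) and MCL1 hold the effectors BAX and BAK1 in check, whereas the effectors form the pores. The BH3-only proteins are the sensors: BCL2L11 (BIM) and BID bind guardians and can engage effectors, BIK sits mainly at the endoplasmic reticulum, and PMAIP1 (NOXA) binds MCL1 with preference. FOXO factors are textbook activators of BCL2L11, granulosa cells are removed by apoptosis during follicle atresia, and the question the design poses for these genes is whether wild-type FOXL2, its mutant and active FOXO1 shift their mRNA.

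The upstream sequences of 3 members are shown because they are the members with a difference past the test, PMAIP1 in 5 comparisons, BAK1 in 1 and BCL2L11 in 1. Each is the stretch of 250 bases before a RefSeq transcription start (GRCh38.p14), written 5′ to 3′ on the gene's own strand, PMAIP1 at chr18:59899746-59899995 (+), BCL2L11 at chr2:111120664-111120913 (+) and BAK1 at chr6:33580277-33580526 (−). Capitals mark a match to a searched motif: ACGTCA in PMAIP1, which is TGACGT on the opposite strand, and GTAAACA in BCL2L11.
PMAIP1: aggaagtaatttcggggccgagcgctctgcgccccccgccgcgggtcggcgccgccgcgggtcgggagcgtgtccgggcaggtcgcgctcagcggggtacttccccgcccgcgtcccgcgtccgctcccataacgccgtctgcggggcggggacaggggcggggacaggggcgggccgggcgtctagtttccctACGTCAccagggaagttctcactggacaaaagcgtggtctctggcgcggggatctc
BCL2L11: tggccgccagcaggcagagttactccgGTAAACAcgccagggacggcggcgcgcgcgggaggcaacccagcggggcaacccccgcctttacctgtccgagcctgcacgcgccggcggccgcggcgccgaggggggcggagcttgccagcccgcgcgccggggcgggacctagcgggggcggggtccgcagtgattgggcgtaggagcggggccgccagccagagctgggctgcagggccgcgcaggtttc
BAK1: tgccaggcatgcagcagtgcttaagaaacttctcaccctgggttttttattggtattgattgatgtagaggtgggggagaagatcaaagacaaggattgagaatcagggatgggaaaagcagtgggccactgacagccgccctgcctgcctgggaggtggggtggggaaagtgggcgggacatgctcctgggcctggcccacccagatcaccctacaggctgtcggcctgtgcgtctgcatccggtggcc

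Windows of 300 bases, 250 before and 50 after the start, were given for 7 of the 10 members in 12 windows, and BCL2L2, MCL1 and BIK had no entry. They were searched on both strands for the forkhead element GTAAACA, its core TAAACA, the SMAD elements GTCTAGAC and CAGACA, and TGACGT, the core of the cyclic AMP response element, which was added after the data were seen. In BCL2L11 the window held GTAAACA at position −223 from the start, a match found in 3.42% of the 35116 promoter windows of the table. It also counts as a match to the contained TAAACA, which 12.3% of all windows held and which was found in 1 further member window, of BID. PMAIP1 held TGACGT at −56 and none of the forkhead or SMAD letters, and 7.98% of all windows held TGACGT. The SMAD letters CAGACA were found in windows of BCL2L1 and BID, beside 16.9% of all windows. No member window held GTCTAGAC (0.202% of all windows), and the BAK1, BAX and BCL2 windows held none of the motifs. The BCL2L11 window lies inside the gene as GENCODE 44 draws it (chr2:111119378-111168444), whose annotated 5′ end is further upstream. PMAIP1 spans chr18:59899996-59904305 (ENSG00000141682.12) and BAK1 chr6:33572547-33580293 (ENSG00000030110.14) in that annotation. These matches describe letters, and binding at them was not measured here.

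Levels of different genes were compared as TPM, which corrects for transcript length, summed over the transcripts of a gene. MCL1 had the highest level, from 177 to 219 TPM over the 15 libraries, and PMAIP1 followed with 131 to 204. In summed TPM PMAIP1 thus stood next to the guardian it binds, and it was below MCL1 in all 15 libraries. These sums include every transcript of a gene. A form of 197 residues took 23.1% to 30.1% of MCL1 reads as condition means. Transcripts not annotated as protein-coding in GENCODE 44 took 53.5% to 58.3% of BAX reads. Levels of single forms were not compared between genes. BAX was at 85.8 to 135 TPM and BCL2L1 at 89.0 to 106. The ranges of PMAIP1 and BAX overlapped, but within each of the 15 libraries PMAIP1 was above BAX. The ranges of BAX and BCL2L1 overlapped too, and their order differed between libraries, so it is not fixed by these data. BID followed at 35.9 to 62.5 TPM, then BAK1 at 27.9 to 35.7, BCL2L2 at 7.43 to 12.3 and BCL2L11 at 3.06 to 10.1. BCL2L2 and BCL2L11 overlapped. BIK reached at most 0.793 TPM and BCL2 at most 0.246 TPM, and their ranges overlapped. BIK had 0 to 11 counts per library and BCL2 had 7 to 34. Of the guardians, MCL1 and BCL2L1 therefore made up nearly all of the message measured, and BCL2 itself, the founding member of the family, had the lowest mean TPM of the 10.

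**Figure D1:**
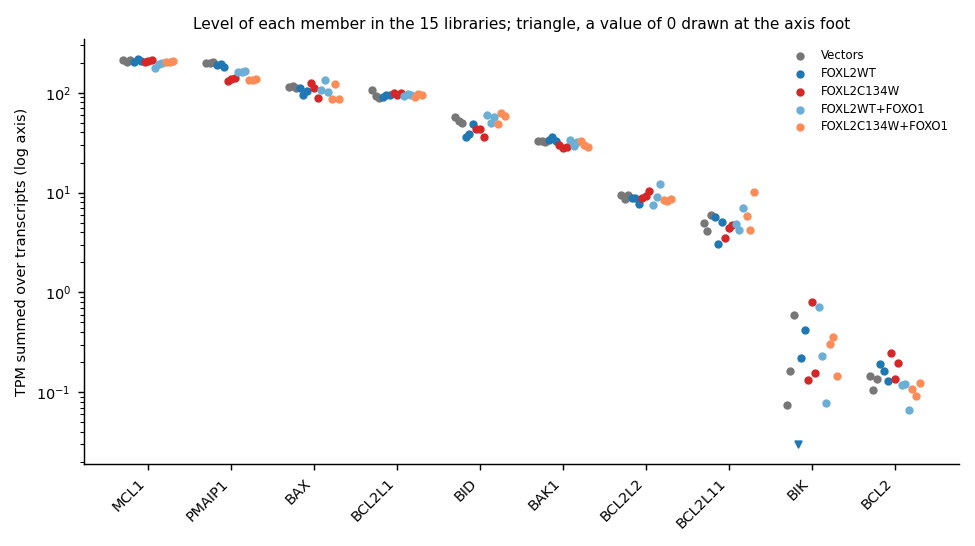
TPM of each member in each of the 15 libraries, on a log axis, coloured by condition, with a triangle for a value of 0. MCL1 (177 to 219 TPM) and PMAIP1 (131 to 204 TPM) lie at the top, and BIK and BCL2 lie below 1 TPM.

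Library totals ran from 14962245 to 25339094 estimated counts, and 9 of the 10 members passed the filter on low counts together with 13868 genes in all. BIK did not pass: it had 0 to 11 counts per library, and a count of 0, seen in FOXL2WT library A, allows up to 0.159 CPM, the count scaled to the size of the library. BCL2 passed with only 7 to 34 counts, so its fold changes have wide intervals. The other members had 190 counts or more in every library. BCL2L2 is uncertain, since it shares exons with the read-through gene BCL2L2-PABPN1, which had 11 counts in FOXL2C134W library C and 83 to 260 elsewhere. Of 14 granulosa markers, 10 passed the filter. GATA4 (129 to 154 CPM) and WT1 (38.8 to 47.7 CPM) were clearly expressed, whereas FSHR was at 0 in every library and INHA and CYP19A1 did not exceed 4 counts. Apart from FOXL2, the called markers were GATA4 (−0.16) and HSD17B1 (0.63) in FOXL2WT and CYP11A1 (−0.93) in FOXL2WT + FOXO1, each as a log2 fold change against Vectors. Of 8 markers of other ovarian cells, CYP17A1, INSL3 and PTPRC had at most 5 counts. KRT7 was abundant (1154 to 1976 CPM) and higher in FOXL2WT and in FOXL2C134W than in Vectors, by 0.45 and 0.41 on the log2 scale. CD68, a macrophage marker, was lower in the same comparisons (log2 −0.22, adjusted p = 0.014, and −0.25, adjusted p = 0.0025). The summed level of the granulosa list without FOXL2 was 237 to 262 CPM over all libraries. That of the other list, mostly KRT7, was 1283 to 1485 CPM in Vectors and 1606 to 2079 CPM in the other conditions, and its part in the values of the members was not tested.

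The transfected genes check the labels, and they differed between conditions by more than the members did. FOXL2 was at 8.37, 9.54 and 8.28 CPM in Vectors, 562, 566 and 554 in FOXL2WT, 175, 146 and 121 in FOXL2C134W, 376, 374 and 401 in FOXL2WT + FOXO1 and 142, 176 and 139 in FOXL2C134W + FOXO1. SMAD3 rose from 240 to 263 CPM in Vectors to 2590 to 2890 in FOXL2WT, against 812 to 885 in FOXL2C134W, 957 to 976 in FOXL2WT + FOXO1 and 379 to 411 in FOXL2C134W + FOXO1. FOXO1 was at 11.6 to 13.8 CPM in the 9 libraries without its plasmid, at 104 to 132 in FOXL2WT + FOXO1 and at 39.1 to 47.2 in FOXL2C134W + FOXO1. In every library the plasmid messages named in its label were above the level in Vectors, which does not tell wild-type from mutant FOXL2, since no sequence was read here. FOXL2 and SMAD3 messages were higher in the wild-type than in the mutant arm. SMAD3 fell in both arms when FOXO1 was added (log2 −1.51 and −1.11), FOXL2 fell in the wild-type arm (−0.55) and FOXL2 differed by 0.05 in the mutant arm. In comparisons among the conditions that received FOXL2, the kind of protein and the amount of plasmid message therefore cannot be told apart. The paper describes FOXL2 wild-type, mutant and FOXO1 protein as balanced by immunoblot of cultures run in parallel. No protein was measured in the data used here.

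**Figure D2:**
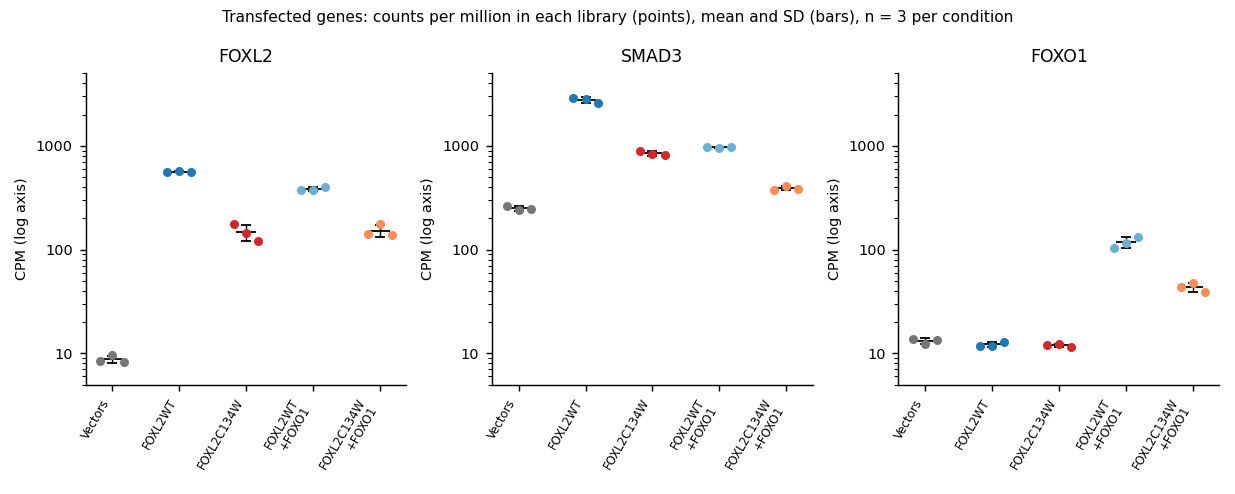
CPM of FOXL2, SMAD3 and FOXO1 in each library (points) on a log axis, with mean and SD of the 3 libraries of a condition (bars). FOXL2 and SMAD3 are highest in FOXL2WT (554 to 566 and 2590 to 2890 CPM), and FOXO1 is higher in FOXL2WT + FOXO1 than in FOXL2C134W + FOXO1.

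PMAIP1 had the largest called differences of the 10 members. Fold changes of BCL2 reached larger sizes (−0.77 on the log2 scale) but rest on few counts, and none was called. The PMAIP1 level was 272, 281 and 286 CPM in Vectors, 268, 273 and 253 in FOXL2WT and 186, 188 and 194 in FOXL2C134W. With FOXO1 it was 240, 225 and 231 CPM in the wild-type arm and 185, 180 and 181 in the mutant arm. All 6 libraries with the mutant lay below all 9 without it, Vectors and FOXL2WT overlapped, and FOXL2WT + FOXO1 lay between the mutant libraries and the others. In FOXL2C134W the level was 1.48-fold lower than in Vectors (95% interval 1.39 to 1.56), a log2 fold change of −0.56 (SE 0.04, edgeR adjusted p = 5.1e-08), and 1.40-fold lower than in FOXL2WT (1.32 to 1.48, log2 −0.48, adjusted p = 7.3e-07). FOXL2WT and Vectors differed by −0.08 (adjusted p = 0.25, 95% interval −0.16 to 0.0011). Under active FOXO1 the mutant stayed 1.28-fold below the wild type (1.20 to 1.35, adjusted p = 0.00014). Each of these calls, and the 2 against Vectors given further on, held under all 15 alternatives to the analysis.

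**Figure D3:**
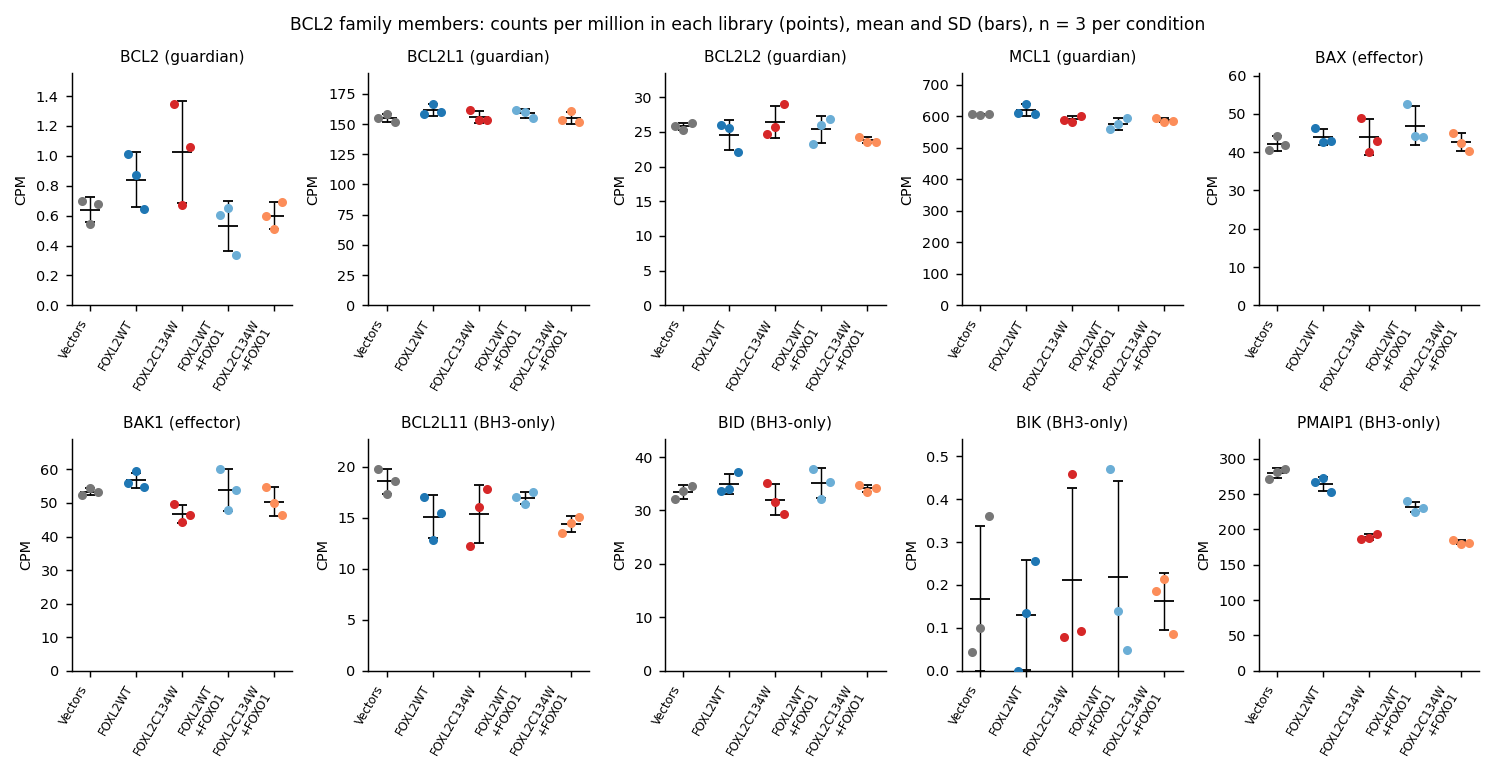
CPM of each member in each library (points), with mean and SD (bars, n = 3), on linear axes that start at 0. PMAIP1 is between 180 and 194 CPM in the 6 mutant libraries and between 225 and 286 CPM in the other 9, whereas BCL2L1 and MCL1 stay nearly level.

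BAK1, the effector that resides at mitochondria in healthy cells, was also lower with the mutant. It was at 49.6, 44.4 and 46.4 CPM in FOXL2C134W, at 55.9, 59.4 and 54.9 in FOXL2WT and at 52.5, 54.4 and 53.3 in Vectors. The mutant libraries lay below both other conditions without overlap. The difference from FOXL2WT was 1.21-fold (95% interval 1.09 to 1.35, log2 −0.27, SE 0.07, adjusted p = 0.022), and that from Vectors was −0.19 (adjusted p = 0.093). The first was lost when FOXL2WT library A, FOXL2WT library B, FOXL2C134W library B or FOXL2C134W library C was left out, with adjusted p from 0.052 to 0.12. With FOXO1 the values were 60.2, 47.8 and 53.8 CPM in the wild-type arm and 54.8, 50.0 and 46.3 in the mutant arm, which overlapped (log2 −0.09, adjusted p = 0.60). BAX, the other effector, was at 40.0 to 52.7 CPM over all libraries, and its log2 fold changes ran from −0.13 to 0.15 with no call in any comparison.

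BCL2L11, a BH3-only gene, was not called when active FOXO1 was added. Its level was 19.8, 17.3 and 18.6 CPM in Vectors, 17.0, 12.8 and 15.5 in FOXL2WT and 12.2, 16.1 and 17.8 in FOXL2C134W. With FOXO1 it was 17.0, 16.3 and 17.5 CPM in the wild-type arm and 13.5, 14.5 and 15.1 in the mutant arm. Both pairs with and without FOXO1 overlapped. Adding FOXO1 gave a log2 fold change of 0.16 in the wild-type arm (SE 0.12, 95% interval −0.09 to 0.41, adjusted p = 0.72) and −0.09 in the mutant arm (SE 0.12, −0.34 to 0.15, adjusted p = 0.85). These intervals hold for the gene counts. With transcript length offsets the value in the mutant arm was 0.67, also not called, and mean TPM was 4.24 in FOXL2C134W and 6.73 with FOXO1 (SD 0.618 and 3.06, n = 3). Against Vectors the log2 fold change was −0.29 in FOXL2WT (adjusted p = 0.15) and −0.28 in FOXL2C134W (adjusted p = 0.11), neither past the test, and both were called when all genes of at least 1 count were kept (adjusted p = 0.034 and 0.030).

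BID, which caspase-8 cleaves to link death receptors to mitochondria, was at 29.4 to 37.8 CPM and had no call, with log2 fold changes from −0.13 to 0.09. These fold changes hold for the gene counts. Under the alternatives they reached −0.37 in FOXL2C134W against Vectors and 0.46 on adding FOXO1 in the mutant arm, neither called. Its mean TPM was 52.9 in Vectors, 41.1 in FOXL2WT, 41.3 in FOXL2C134W, 55.4 in FOXL2WT + FOXO1 and 56.3 in FOXL2C134W + FOXO1. Among the guardians, MCL1 was at 603 to 608 CPM in Vectors, 609 to 641 in FOXL2WT, 583 to 601 in FOXL2C134W, 559 to 596 in FOXL2WT + FOXO1 and 581 to 594 in FOXL2C134W + FOXO1. These ranges were narrow enough to be free of overlap in several comparisons, but the largest log2 fold change was −0.11 (FOXL2WT + FOXO1 against FOXL2WT, adjusted p = 0.35). BCL2L1 was at 152 to 167 CPM, the steadiest member with a coefficient of variation of 2.91% over the 15 libraries, and no comparison moved it by more than 0.07 on the log2 scale. BCL2L2 was at 22.1 to 29.1 CPM with no call. BCL2 was at 1.35, 0.669 and 1.06 CPM in FOXL2C134W and at 0.60, 0.511 and 0.688 with FOXO1 added (log2 −0.77, SE 0.33, adjusted p = 0.38), values that rest on 12 to 34 counts.

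Against Vectors, FOXL2WT called 0 of the 9 members tested, where 6.07% of all genes were called. In edgeR, 1 member, BCL2L11, had an unadjusted p under 0.05, and DESeq2 called none of the 8 to which it gave an adjusted p. Ranges did not overlap for 4 members, BCL2L1, MCL1 and BAK1 higher and BCL2L11 lower, beside 31.1% of all genes. FOXL2C134W against Vectors called 1 of 9, PMAIP1, beside 14.7% of all genes, and 3 were free of overlap, all lower (PMAIP1, BAK1, MCL1), beside 31.8%. FOXL2C134W against FOXL2WT called 2 of 9, PMAIP1 and BAK1, both lower, beside 11.2% of all genes, with 3 free of overlap beside 30.4%. Counts of 0, 1 and 2 among 9 genes lie near what these shares of all genes give, and nothing is read from them about the members as a set. Their median log2 fold change was 0.06, −0.04 and −0.05 in these 3 comparisons, against 0.0025, 0.0043 and −0.012 over all genes tested.

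No member passed the edgeR test on adding active FOXO1. In the wild-type arm 0 of 9 members were called, beside 0.0505% of all genes, and 2 were free of overlap, PMAIP1 and MCL1, both lower, beside 14.5%. Both had an unadjusted p under 0.05 in edgeR. PMAIP1 differed by −0.19 (SE 0.04, adjusted p = 0.11) and was called by DESeq2 (adjusted p = 0.0018), by DESeq2 with transcript length offsets (0.016) and with all genes of at least 1 count kept (0.011). In the mutant arm 0 of 9 were called, beside 0.714% of all genes, BCL2 had an unadjusted p under 0.05, and DESeq2 called none of 8. There PMAIP1 differed by −0.06 (adjusted p = 0.65), and PMAIP1 and BCL2L2 were free of overlap, both lower, beside 14.0% of all genes. The effect of FOXO1 in the mutant arm minus that in the wild-type arm was called for 0 of 9 members, and for none of 8 by DESeq2, beside 1.38% of all genes. For PMAIP1, the 1 member with an unadjusted p under 0.05, it was 0.13 (unadjusted p = 0.0318, edgeR adjusted p = 0.33), and a difference between the arms was therefore not shown. Within the FOXO1 conditions, the mutant against the wild type called PMAIP1 alone of 9, beside 0.144% of all genes, and 2 members, PMAIP1 and BCL2L11, were free of overlap, beside 15.2%.

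**Figure D4:**
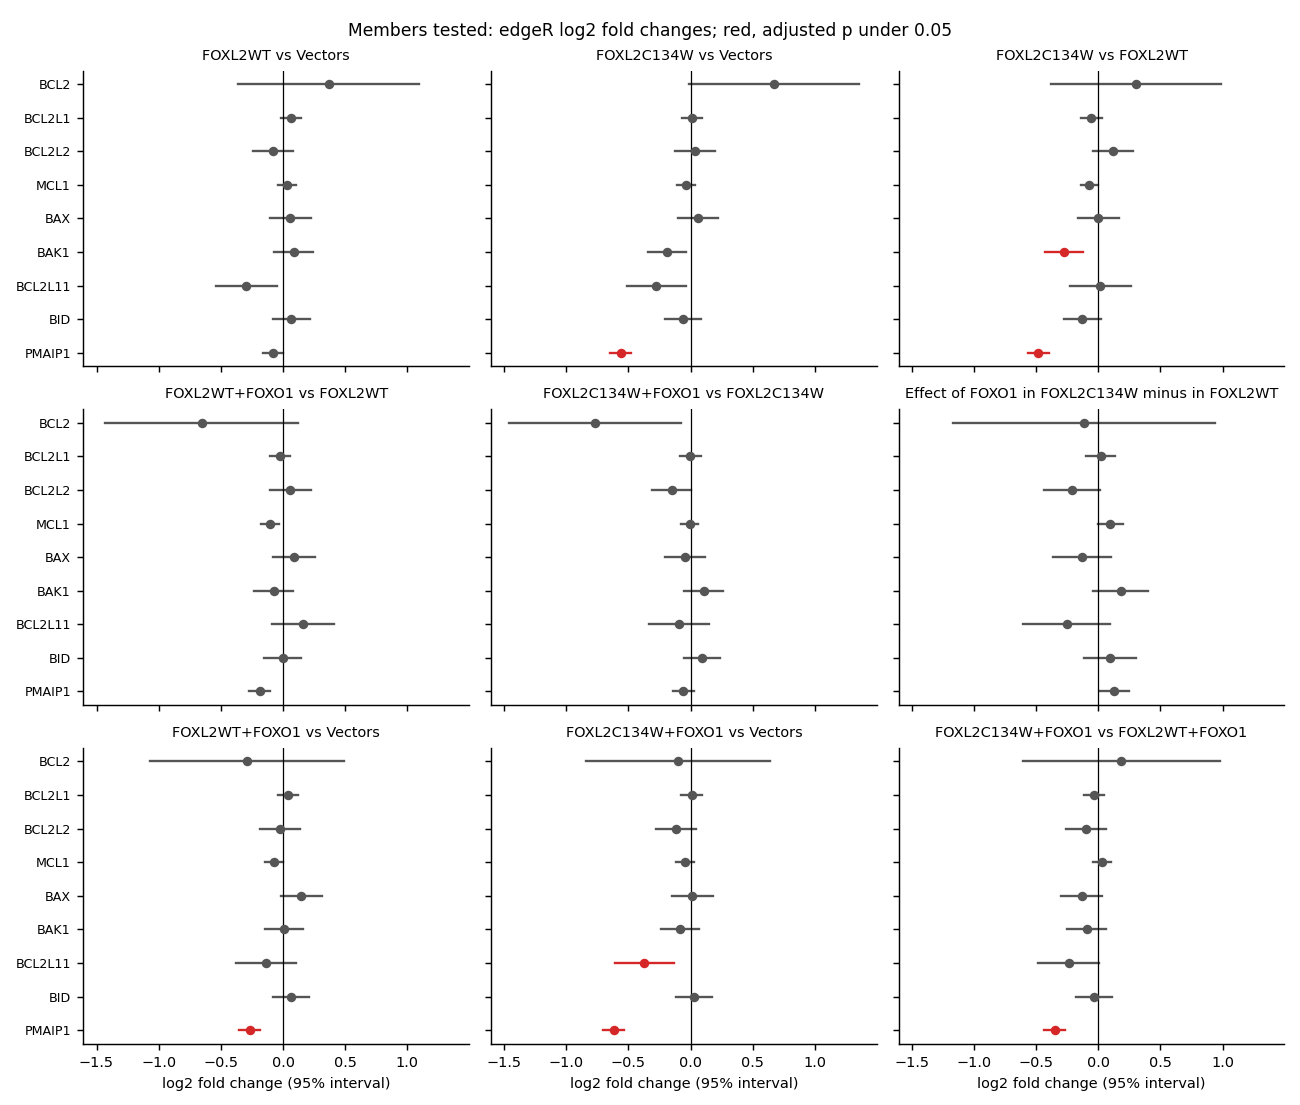
Log2 fold changes of the 9 members tested with 95% intervals, one panel per comparison, red where the edgeR adjusted p was under 0.05. The 7 red points are all below 0 and belong to PMAIP1 (5), BAK1 and BCL2L11, and the wide intervals belong to BCL2.

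The conditions with FOXO1 were also set against Vectors, a choice made after the data were seen. FOXL2WT + FOXO1 called PMAIP1 alone of 9 members, 1.20-fold lower (95% interval 1.14 to 1.28, adjusted p = 0.00053), beside 3.78% of all genes, with 2 members free of overlap (PMAIP1 and MCL1, both lower) beside 22.7%. FOXL2C134W + FOXO1 called 2 of 9, beside 9.33%, with 4 free of overlap (those 2, BCL2L2 and MCL1, all lower) beside 28.4%. PMAIP1 was 1.54-fold lower there (1.45 to 1.63, adjusted p = 1.8e-08). BCL2L11 was 1.29-fold lower (1.1 to 1.53, log2 −0.37, adjusted p = 0.046). This last call held in 8 of 15 alternatives, was lost when any of the 6 libraries compared was left out, and turned to 0.42 (adjusted p = 0.56) with transcript length offsets. The comparisons with Vectors share the same 3 control libraries, and those without FOXO1 share libraries with those that add it.

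The PMAIP1 level relative to its partner MCL1 followed PMAIP1. The ratio of their TPM was 0.947 ± 0.028 in Vectors (SD, n = 3), 0.894 ± 0.031 in FOXL2WT, 0.858 ± 0.040 in FOXL2WT + FOXO1, 0.659 ± 0.0047 in FOXL2C134W and 0.657 ± 0.0043 in FOXL2C134W + FOXO1. The 6 mutant libraries spanned 0.653 to 0.663 and the other 9 spanned 0.834 to 0.971. Summing all 6 pro-apoptotic members (effectors and BH3-only) against all 4 guardians gave a log2 ratio of 0.36 ± 0.049 in Vectors, 0.25 ± 0.064 in FOXL2WT and 0.018 ± 0.12 in FOXL2C134W, and of 0.33 ± 0.073 and 0.081 ± 0.090 with FOXO1. PMAIP1, BAX, MCL1 and BCL2L1 carried most of these sums. From Vectors to FOXL2WT mean TPM went from 52.9 to 41.1 for BID and from 114 to 104 for BAX. Their gene counts gave log2 fold changes of 0.07 and 0.06 there. The sums include the BAX transcripts not annotated as protein-coding and the 197-residue form of MCL1. The part of transcript assignment in the ratios was not tested. These ratios are descriptions of mRNA, no protein was measured in these files, and fewer cells expressing a gene cannot be told apart from less RNA per cell.

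Transcript estimates gave a further view of the members. For 7 members, transcripts coding for at least 2 protein lengths each took 5% or more of the reads on average, which gave 14 forms and 84 comparisons, 17 of them free of overlap. The forms of a gene divide its reads, so a difference in PMAIP1 or BCL2 was counted once for each form. No share over all genes was computed beside this count, and nothing is read from it. With 3 libraries against 3, the smallest two-sided p of the exact permutation test is 0.1, so no comparison could pass 0.05. Most PMAIP1 reads were assigned to the transcript of the 54-residue protein, the common NOXA, and the share assigned to a transcript coding for 136 residues was 3.44%, 5.83% and 5.73% in Vectors, 6.35%, 6.05% and 6.32% in FOXL2WT and 3.66%, 2.98% and 5.77% in FOXL2C134W. With FOXO1 the share was 7.81%, 7.34% and 8.0% in the wild-type arm and 9.11%, 11.9% and 10.1% in the mutant arm. All 6 libraries with FOXO1 thus lay above all 9 without it. With FOXO1 the mean share was higher by 1.47 percentage points in the wild-type arm and by 6.25 in the mutant arm (exact permutation p = 0.1 for each), and the difference between the arms was not tested. Without FOXO1 the mutant mean of 4.14% lay below that of FOXL2WT, 6.24%, without overlap, and the mutant overlapped Vectors.

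**Figure D5:**
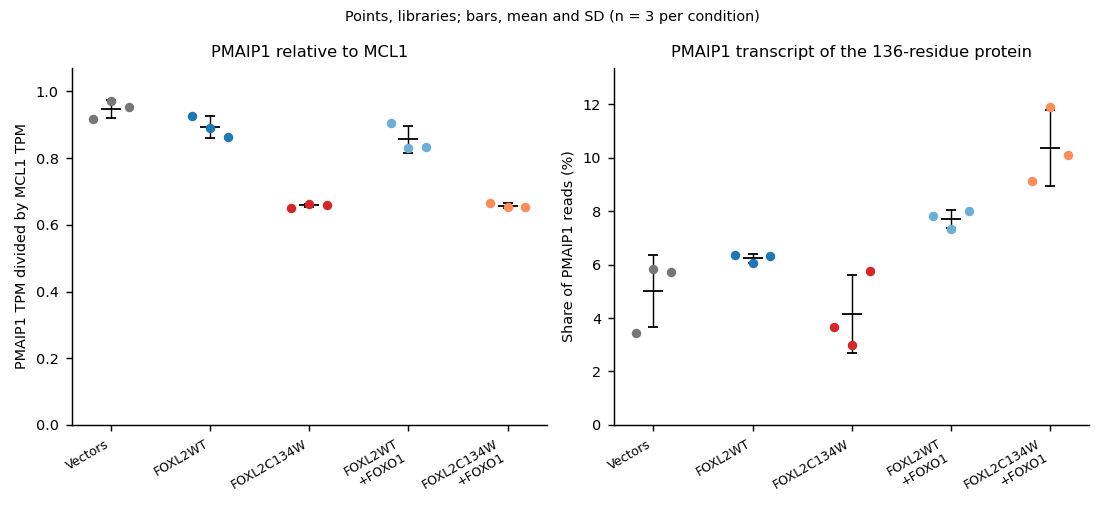
Left, PMAIP1 TPM divided by MCL1 TPM, and right, the share of PMAIP1 reads assigned to the transcript of the 136-residue protein, in each library (points) with mean and SD (bars, n = 3). The ratio is 0.653 to 0.663 in the 6 mutant libraries, and the share is 7.34% to 11.9% in the 6 libraries with FOXO1.

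BCL2L1 is spliced into the guardian BCL-XL of 233 residues and a shorter form of 170 residues, the length of the pro-apoptotic BCL-XS. The short form took 9.88% to 16.2% of reads, and its condition means of 11.4% to 13.9% overlapped in every comparison. For MCL1 the full form of 350 residues took a mean of 67.7% to 74.9% and a form of 197 residues 23.1% to 30.1%. The share of the 197-residue form was 20.7%, 22.6% and 26.1% in FOXL2WT and 33.2%, 29.3% and 26.5% with FOXO1, free of overlap (exact permutation p = 0.1). More BAX reads went to transcripts not annotated as protein-coding in GENCODE 44, mostly ones with retained introns and a few subject to nonsense-mediated decay, than to coding ones, at condition means of 53.5% to 58.3%. For BAK1, BID and BCL2L11 the assignment was unstable between libraries of a condition. The 198-residue form of BCL2L11, the longest BIM, took 0.0% in FOXL2C134W + FOXO1 library A and 77.6% and 74.2% in libraries B and C. The gene TPM of BCL2L11 varied more than its CPM, with a coefficient of variation of 32.8% against 13.4%.

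The genes whose level was most like that of a called member over the 15 libraries were listed as a description, since the libraries fall into 5 conditions and r mostly reflects those. PMAIP1 was followed most closely by KLF4 (Pearson r = 0.974), CXCL8 (0.972) and SHFL (0.960). KLF4 is a zinc finger transcription factor, CXCL8 encodes interleukin-8 and SHFL is an interferon-induced gene. The 3 most like BAK1 were SLC31A2 (0.935), PSMA1 (0.920) and EI24 (0.914), a copper transporter homologue, a proteasome subunit and a p53-induced gene. For BCL2L11 they were HEXIM1 (0.883), STEAP4 (0.863) and STAT3 (0.854).

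Outside the 10 members, 13 further genes of the family were listed and 10 were tested. Against Vectors none was called in FOXL2WT (3 at an unadjusted p under 0.05 in edgeR, 0 of 8 by DESeq2). In FOXL2C134W against Vectors 2 fell, the BH3-only gene BMF (log2 −0.72, SE 0.20, adjusted p = 0.020) and BCL2L13 (−0.20, SE 0.04, adjusted p = 0.0020), a mitochondrial membrane protein. DESeq2 called both there and BNIP3L as well. BMF was at 3.49, 3.02 and 3.40 CPM in Vectors and at 2.06, 2.01 and 1.94 in FOXL2C134W, without overlap. BCL2L13 was also lower in FOXL2C134W than in FOXL2WT (−0.20, adjusted p = 0.0026), the only one of the 10. On adding FOXO1 edgeR called none of the 10 in either arm, 1 had an unadjusted p under 0.05 in each, and DESeq2 called none of the 6 and 9 to which it gave an adjusted p. Against Vectors, BNIP3L was lower in FOXL2WT + FOXO1 (−0.17, adjusted p = 0.032) and BMF in FOXL2C134W + FOXO1 (−0.96, adjusted p = 0.0057). BBC3 (PUMA), the other classical p53-driven BH3-only gene beside PMAIP1, was not called in any comparison and differed by −0.46 between FOXL2C134W and FOXL2WT (adjusted p = 0.066). Counts in this list and those below stand beside the shares of all genes called. These were 6.07% in FOXL2WT and 14.7% in FOXL2C134W, both against Vectors, and 11.2% in FOXL2C134W against FOXL2WT. On adding FOXO1 they were 0.0505% in the wild-type arm and 0.714% in the mutant arm. Against Vectors they were 3.78% in FOXL2WT + FOXO1 and 9.33% in FOXL2C134W + FOXO1.

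Of 15 genes for mitochondrial release and caspase activation, all tested, ENDOG, a mitochondrial nuclease, was higher in FOXL2WT than in Vectors (log2 0.57, adjusted p = 0.0065). In FOXL2C134W against Vectors DFFA, the inhibitor of the caspase-activated DNase, was higher (0.37, adjusted p = 1.8e-05). DFFA was higher in the mutant than in FOXL2WT as well (0.24, adjusted p = 0.0014). On adding FOXO1 edgeR called none of the 15 in either arm (1 and 2 at an unadjusted p under 0.05), and neither did DESeq2. Of 6 inhibitor of apoptosis genes tested (7 listed), BIRC3 fell in FOXL2WT (−0.33, adjusted p = 0.033) and, with BIRC5 (−0.21, adjusted p = 0.015), in FOXL2C134W (−0.43, adjusted p = 0.0026), both against Vectors. Between FOXL2C134W and FOXL2WT edgeR and DESeq2 called none, with 3 at an unadjusted p under 0.05. On adding FOXO1 both tools again called none (2 and 1 at an unadjusted p under 0.05 in edgeR). Against Vectors 1 of the 6 fell in each condition with FOXO1, and 0 rose.

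Of 13 death receptor genes tested (15 listed), the ligand TNFSF10 (TRAIL) had the largest called difference. It was at 54.8, 44.2 and 46.3 CPM in Vectors, 24.0, 19.9 and 28.0 in FOXL2WT and 18.6, 16.4 and 22.7 in FOXL2C134W, lower in both than in Vectors (log2 −1.0, adjusted p = 7.7e-05, and −1.34, adjusted p = 1.6e-06). FOXL2C134W and FOXL2WT overlapped (−0.34, adjusted p = 0.11). Against Vectors FOXL2C134W was also lower in CASP10 (−0.40, adjusted p = 0.0051) and the TRAIL receptor TNFRSF10B (−0.15, adjusted p = 0.011), and against FOXL2WT it was lower in the receptors TNFRSF10D (−0.30, adjusted p = 0.043) and TNFRSF10B (−0.14, adjusted p = 0.025). In the comparison with FOXL2WT, DESeq2 called TNFRSF10B but not TNFRSF10D. On adding FOXO1 edgeR called none of the 13 in either arm (1 at an unadjusted p under 0.05 in each), and neither did DESeq2. Against Vectors 2 of the 13 fell in FOXL2WT + FOXO1 and 4 in FOXL2C134W + FOXO1, and 0 rose in either.

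PMAIP1 is a known target of p53 and of stress-induced ATF factors, and both lists were followed beside it. Whether p53 or these factors changed PMAIP1 here was not tested. Of 20 p53 target genes, all tested, 1 rose and 0 fell in FOXL2WT against Vectors (SESN2, 0.57, adjusted p = 0.00066). In FOXL2C134W against Vectors 2 rose and 6 fell, with TP53INP1 (−0.40, adjusted p = 0.026) and CCNG1 (−0.35, adjusted p = 5.7e-05) lowest and SESN2 (0.28) and XPC (0.21) highest. Against FOXL2WT 4 fell and 0 rose, GDF15 (−0.34, adjusted p = 0.040), SESN2 (−0.29, adjusted p = 0.037), CCNG1 (−0.25, adjusted p = 0.0018) and TNFRSF10B. DESeq2 also called 4 there, but with CDKN1A in place of GDF15. The list's median was −0.12 in each of the last 2 comparisons, beside 0.0043 and −0.012 over all genes. On adding FOXO1 edgeR called 0 of the 20 in either arm (3 and 2 at an unadjusted p under 0.05), and so did DESeq2, which gave an adjusted p to 11 and 20. Against Vectors 1 rose and 3 fell in FOXL2WT + FOXO1, and 0 rose and 5 fell in FOXL2C134W + FOXO1.

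Of 7 stress response regulators, all tested, 5 rose in FOXL2WT against Vectors, with TRIB3 (0.78, adjusted p = 2.4e-05) and CHAC1 (0.72, adjusted p = 0.00066) highest, and 6 were lower in FOXL2C134W than in FOXL2WT, with ATF3 (−0.95, adjusted p = 5.8e-07) and TRIB3 (−0.41, adjusted p = 0.0041) lowest. The list's median was 0.31 and −0.29 in these comparisons. ATF3 was at 27.0, 29.3 and 30.4 CPM in Vectors, 40.0, 46.2 and 38.9 in FOXL2WT and 22.1, 22.0 and 20.5 in FOXL2C134W. It thus rose with the wild type (0.52, adjusted p = 0.00027) and fell with the mutant (−0.42, adjusted p = 0.0010). ATF3 was the 1 regulator of 7 that fell in FOXL2C134W against Vectors, and 3 rose there, CHAC1 (0.39, adjusted p = 0.022), TRIB3 (0.38, adjusted p = 0.0056) and ATF4 (0.14, adjusted p = 0.022). In FOXL2WT + FOXO1 against Vectors 3 rose and 0 fell. In FOXL2C134W + FOXO1 against Vectors 1 rose and 3 fell. The part of these regulators in the PMAIP1 level was not tested. With FOXO1, ATF3 was at 31.1, 27.0 and 27.4 CPM in the wild-type arm, lower than without it (−0.55, adjusted p = 0.0040), the one regulator of the 7 called by edgeR (DESeq2 also called TRIB3), and at 18.6, 19.3 and 17.4 CPM in the mutant arm, where edgeR called none of the 7 (2 at an unadjusted p under 0.05) and DESeq2 called PPP1R15A. In FOXL2C134W + FOXO1 against FOXL2WT + FOXO1 ATF3 was again the one regulator called by edgeR (−0.62, adjusted p = 0.00065). DESeq2 gave ATF3 no adjusted p there and called ATF4. BBC3 stands in both the p53 and the family list, and FAS and TNFRSF10B stand in both the p53 and the death receptor list.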

How the data were processed

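RNA from 15 libraries of HGrC1 cells was analysed, in 5 conditions of 3, grouped by the plasmids named in the labels. The authors estimated transcript abundance from 75-bp single-end stranded mRNA reads with Salmon 1.1.0 on hg38, per the labels and the methods. The deposited gene table holds estimated counts, summed to 37787 genes, rounded and not normalized. The deposited transcript tables hold estimated counts, lengths and TPM for 227063 transcripts, as Salmon gave them to the authors. The gene counts of the members differed by at most 1 from the transcript sums. Transcripts were matched to GENCODE 44 by identifier, 66 of the 83 of the members, and the release used by the authors is not given in the sources used here. The others, and those annotated as other than protein-coding, count as non-coding here.

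Counts were tested in R 4.3.3 with edgeR 4.0.16 (filterByExpr, TMM, quasi-likelihood test), all 15 libraries in a single fit with a term per condition, and Benjamini-Hochberg adjustment over the 13868 genes tested. An adjusted p under 0.05 was a call. CPM used TMM-scaled totals, and log2-CPM for correlations had a prior count of 2. The test was first checked on simulated counts with 200 genes changed. DESeq2 1.42.0, Python 3.11.15, pandas 2.3.3, numpy 2.4.6, scipy 1.17.1 and matplotlib 3.10.9 were also used. Library totals of 14962245 to 25339094 counts set the floor of 3 counts at 0.118 to 0.201 CPM, which covers counting error only. Chi-square over degrees of freedom between libraries of a condition was 2.21 to 8.84, so none was a repeat of another within counting error. DESeq2 left some genes without an adjusted p, which were not counted as tested by it.

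The alternatives were DESeq2 with and without transcript length offsets, its size factors in edgeR, a filter of at least 1 count in any library or of at least 10 in every library, the compared groups alone, a gene length offset by lowess (span 0.3), a replicate block, both together, and leaving out each library. No expression value enters the rule for the members, but the members, the gene lists and the tests were chosen with earlier results of these data known. Comparisons of the FOXO1 conditions with Vectors, the TGACGT motif and leaving out libraries for the summed ratio were added after the data were seen. Named are all members, the transfected genes, the called genes of the other lists (at most the 2 largest and 2 smallest log2 fold changes per list and comparison), and the 3 genes most correlated with each called member. BBC3 was named after its values were seen, as were BCL2L2-PABPN1 and the values of BMF and ATF3 beside members. The result of a gene in the list for mitochondrial release and caspase activation is not reported here.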

Additional observations from a re-analysis of the deposited data

Results flagged for a closer look

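The effect of FOXO1 in the mutant arm minus that in the wild-type arm passed the test for the 3 transfected genes and for no member of the family. It was 0.597 on the log2 scale for FOXL2 (edgeR adjusted p = 0.033), whose level fell in the wild-type arm and differed by 0.05 in the mutant arm. It was 0.408 for SMAD3 (edgeR adjusted p = 0.0065), which fell in both arms. It was −1.408 for FOXO1 (edgeR adjusted p = 4.7e-05), which rose by 3.26 in the wild-type arm and by 1.85 in the mutant arm.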

How the results depend on the processing

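Over 141 repeats of the counts of members called, 121 stayed within 1.5 times the value given. With all genes of at least 1 count kept, FOXL2WT against Vectors called 1 member, FOXL2C134W against Vectors 3 and FOXL2WT + FOXO1 against FOXL2WT 1. FOXL2C134W against Vectors called 2 with the compared groups alone, with the gene length offset and with that offset and the replicate block, and 1 to 2 when a library was left out. FOXL2WT + FOXO1 against FOXL2WT called 1 with DESeq2 and with DESeq2 and transcript length offsets. FOXL2C134W against FOXL2WT called 1 to 2 when a library was left out. FOXL2C134W + FOXO1 against Vectors called 1 when any library compared was left out. It also called 1 with transcript length offsets, under which BCL2L11 turned to 0.42. MCL1 was called in FOXL2C134W against FOXL2WT with the gene length offset (−0.13, adjusted p = 0.014). Values not past the test changed sign 67 times in all, counted once for each setting, 17 times with transcript length offsets. The cause was not tested.

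Without the 3 largest members the summed log2 ratio of pro-apoptotic to guardian genes, relative to Vectors, turned from −0.024 to 0.042 in FOXL2WT + FOXO1 and from −0.28 to 0.082 in FOXL2C134W + FOXO1, and with summed CPM it was −0.10 and −0.36. The replicate letters did not pair the libraries: deviations of libraries with the same letter correlated at −0.16 to 0.17 (median 0.0036), 2 of 30 pairs were over 0.1, and 5 of 15 libraries were nearest to their own letter. With the replicate block 0, 1 and 2 members were called in FOXL2WT against Vectors, FOXL2C134W against Vectors and FOXL2C134W against FOXL2WT, and the block moved no other count of members called by over 1.5 times. Over all genes, calls ran with the settings other than leaving out a library from 459 to 1690 in FOXL2WT against Vectors (842 as given), 936 to 2320 in FOXL2C134W against Vectors (2041), 708 to 1954 in FOXL2C134W against FOXL2WT (1560), 7 to 260 on adding FOXO1 in the wild-type arm (7), 32 to 463 in the mutant arm (99), 9 to 446 between the arms with FOXO1 (20), 113 to 551 for the difference of the arms (192), 393 to 954 for FOXL2WT + FOXO1 against Vectors (524) and 714 to 1726 for FOXL2C134W + FOXO1 against Vectors (1294). Leaving out a library gave, in the same order, 305 to 662, 1275 to 2126, 772 to 2120, 2 to 7, 5 to 355, 7 to 20, 45 to 423, 215 to 412 and 764 to 1122. Counts of BIK and BCL2 were too low for a change of moderate size to be detectable.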
